A study of Mus musculus with 10 samples.

Results

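The expression of 39 mouse genes of DNA replication and E2F control was measured in mouse tumors that model small cell lung cancer, a cancer of neuroendocrine cells. The genes were chosen by name for their known function, with earlier results of these data known. They are the 3 activator E2F genes, the 2 atypical E2F genes, both cyclin E genes, and genes that license, unwind and copy DNA, supply nucleotides or pack new chromatin. All 39 were found among the 35288 genes of the deposited table, and all 39 were among the 15503 genes tested, whose mean level reached 1 TPM. TPM, a measure of transcript abundance, is scaled for gene length and library total, so levels can be compared between genes. Each library sums to 1000000 TPM, and the read depth is unknown.

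RNA of whole tumors was sequenced in 10 libraries of 6 mice, 3 mice of each genotype. Mice of the genotype RPR2;Nfibf/f are called Nfib-floxed below. The groups were liver metastases of Nfib-floxed mice (n = 2), liver metastases of RPR2 mice (n = 2), lung tumors of Nfib-floxed mice (n = 3) and lung tumors of RPR2 mice (n = 3). RPR2 is known as a model with lung deletion of conditional Rb1, Trp53 and Rbl2, all of them tumor suppressors, and all 10 tumors share that background. The Nfib-floxed tumors carry in addition floxed alleles of Nfib, which encodes a nuclear factor I transcription factor. The sources used here give neither the delivery of the recombinase nor the ages. Each metastasis came from a mouse that also gave a lung tumor. Values below stand in the order of mice JHK1398 and JHK1399 for Nfib-floxed metastases, JHK1373 and JHK1394 for RPR2 metastases, JHK1398, JHK1399 and JHK997 for Nfib-floxed lung tumors, and JHK1373, JHK1394 and JHK1548 for RPR2 lung tumors.

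As background, E2F transcription factors switch on the genes a cell needs to enter S phase, and RB family proteins hold them in check until cyclin-dependent kinases release them. Replication origins are licensed when the origin recognition complex, CDC6 and CDT1 load the MCM helicase, which CDC45 and the GINS complex then turn into a moving fork. Small cell lung cancer is known for loss of RB1 and for fast division, so high levels of these genes are a known trait of the tumor.

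Promoters of E2f2, Rrm2, Chaf1a, Uhrf1, Tk1 and Cdt1 are shown because, of the genes of the set with a promoter entry, these 6 had the smallest p-values over the mean comparison of genotypes, the mean comparison of tissues and the comparison of lung tumors below. Lmnb1, whose p-values were smaller, is named only. The sequences are from RefSeq (GRCm38.p6), 250 bases before to 50 after the start, and lie at chr4:136172024-136172323, chr12:24708004-24708303, chr17:56040166-56040465, chr17:56303087-56303386 and chr8:122567765-122568064 on the plus strand and at chr11:117825965-117826264 on the minus strand. Capitals mark matches to the E2F octamers TTTCCCGC, TTTGGCGC, TTTCGCGC and TTTGCCGC and to the CCAAT box, on either strand. Other forms of the E2F site were not searched and are not marked, so a window without a marked octamer may still hold one.
E2f2: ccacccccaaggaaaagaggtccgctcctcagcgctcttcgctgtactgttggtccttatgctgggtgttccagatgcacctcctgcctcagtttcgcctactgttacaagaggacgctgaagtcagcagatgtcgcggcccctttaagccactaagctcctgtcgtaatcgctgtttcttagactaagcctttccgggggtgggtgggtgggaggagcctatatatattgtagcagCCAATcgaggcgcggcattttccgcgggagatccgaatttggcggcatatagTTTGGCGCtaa
Rrm2: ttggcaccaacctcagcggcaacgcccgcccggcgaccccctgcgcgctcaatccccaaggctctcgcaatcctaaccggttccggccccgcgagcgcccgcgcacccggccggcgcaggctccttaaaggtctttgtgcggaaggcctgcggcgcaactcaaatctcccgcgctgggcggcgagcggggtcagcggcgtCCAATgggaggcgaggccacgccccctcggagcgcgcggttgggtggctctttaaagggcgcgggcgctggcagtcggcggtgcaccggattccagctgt
Chaf1a: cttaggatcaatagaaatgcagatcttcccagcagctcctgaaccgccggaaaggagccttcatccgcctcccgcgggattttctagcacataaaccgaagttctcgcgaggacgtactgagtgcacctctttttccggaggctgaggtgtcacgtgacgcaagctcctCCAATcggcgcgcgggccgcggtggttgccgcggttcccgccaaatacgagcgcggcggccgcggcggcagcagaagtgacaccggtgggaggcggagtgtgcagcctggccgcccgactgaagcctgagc
Uhrf1: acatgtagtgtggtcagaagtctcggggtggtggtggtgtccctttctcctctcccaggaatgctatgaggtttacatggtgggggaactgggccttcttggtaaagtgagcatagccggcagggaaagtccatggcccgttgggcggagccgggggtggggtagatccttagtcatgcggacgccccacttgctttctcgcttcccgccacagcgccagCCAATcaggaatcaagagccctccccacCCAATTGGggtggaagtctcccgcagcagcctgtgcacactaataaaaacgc
Tk1: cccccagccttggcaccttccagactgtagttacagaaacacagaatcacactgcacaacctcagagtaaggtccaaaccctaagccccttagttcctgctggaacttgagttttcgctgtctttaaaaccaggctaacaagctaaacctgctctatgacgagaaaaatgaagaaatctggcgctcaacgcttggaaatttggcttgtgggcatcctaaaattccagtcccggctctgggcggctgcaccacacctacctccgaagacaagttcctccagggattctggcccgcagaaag
Cdt1: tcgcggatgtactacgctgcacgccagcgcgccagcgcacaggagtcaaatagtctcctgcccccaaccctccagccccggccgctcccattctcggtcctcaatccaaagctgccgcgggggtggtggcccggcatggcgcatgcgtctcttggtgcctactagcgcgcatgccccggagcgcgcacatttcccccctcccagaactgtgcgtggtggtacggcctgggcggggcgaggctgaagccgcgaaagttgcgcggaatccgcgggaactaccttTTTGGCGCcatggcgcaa
In E2f2 the box CCAAT lies at -13 and the octamer TTTGGCGC at 40 from the RefSeq start, and in Cdt1 the same octamer lies at 33. In Uhrf1, CCAAT matches on opposite strands overlap. An E2F octamer was found in the promoters of 13 of the 32 genes of the set that have an entry (40.6%), against 2.26% of all 32851 promoters and 3.66% of the 14414 promoters of genes tested. The CCAAT box was found in 22 of 32 (68.8%), against 37.4% of all promoters and 37.6% of those of genes tested. The letters TTTGAA are the CHR element that is known from promoters of mitosis genes. They were found in 6 of 32 (18.8%), against 17.9% of all promoters and 12.2% of those of genes tested. The octamers were found in 13 genes, among them E2f3, E2f7, Orc1, Cdc6, Mcm3, Mcm5, Mcm6 and Mcm7. The window of Tk1 holds none of these letters. The RefSeq start of E2f2 lies at -120 bases from the start in the GENCODE annotation, in genome coordinates, and its window ends before that start. That of Tk1, on the minus strand, lies at -78, inside the annotated gene. For 25 of the 32 genes, bases after the start were found in a GENCODE transcript of the gene. The RefSeq window of E2f1 lies inside the gene as GENCODE annotates it and does not cover the annotated start, so nothing is read from it. A match is a description of letters, not a measured binding site.

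The neuroendocrine marker Insm1 was present in every library, at 102 to 339 TPM. The targeted gene Nfib was at 46.1 and 41.3 TPM in Nfib-floxed metastases, against 62.8 and 643 TPM in RPR2 metastases. In lung tumors Nfib was at 38.0, 26.5 and 38.6 TPM in the Nfib-floxed group and at 85.3, 28.3 and 118 TPM in the RPR2 group, so the RPR2 lung tumor of JHK1394 lay within the Nfib-floxed range. The floxed part of the gene is not named in the labels, and a level over the whole gene checks the deletion only in part. A pair of lung tumors stood apart. The Nfib-floxed lung tumor of JHK1398 had 12.9% of its TPM in mitochondrially encoded genes, against 4.32% to 7.13% in the other libraries. The summed level of 12 club and alveolar epithelium markers was 58030 TPM in this tumor. It was 66364 TPM in the lung tumor of the RPR2 mouse JHK1394, against 25.7 to 270.5 TPM in metastases and 2246 to 12678 TPM in the other lung tumors. Sftpb and Lamp3 of that list were at 0 in at least 1 library.

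Levels of the set spanned from Pcna, the sliding clamp of the replication fork, with a mean of 848 TPM, to Orc1, the largest origin recognition subunit, with 6.65 TPM. Of the 39 genes, 18 had a mean of at least 100 TPM and 2 were under 10 TPM. The highest library exceeded the lowest by 1.81-fold (Rfc3) to 20.6-fold (Rrm2), with a median of 3.37-fold over the genes; the ratio was at least 5 for 8 genes and under 3 for 15. The RPR2 metastasis of JHK1394 was the highest library for 25 of the 39 genes, and its levels summed to 6499 TPM. The Nfib-floxed lung tumor of JHK1398 was the lowest for 23 genes, with a sum of 2575 TPM, and that of JHK1399 was the lowest for 8, with 2853 TPM. The third Nfib-floxed lung tumor, of JHK997, was the lowest for 1 gene and summed to 3516 TPM. Of the 39 genes, 20 lay below their own median over the 10 libraries in all 3 Nfib-floxed lung tumors. In both RPR2 metastases 29 lay above it. The shares of all genes tested that were highest or lowest in these libraries, or on 1 side of their median in these groups, were not counted. Whether these counts are particular to the set is therefore not known. In whole tumors, fewer dividing cells and less RNA per cell cannot be told apart.

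**Figure D1:**
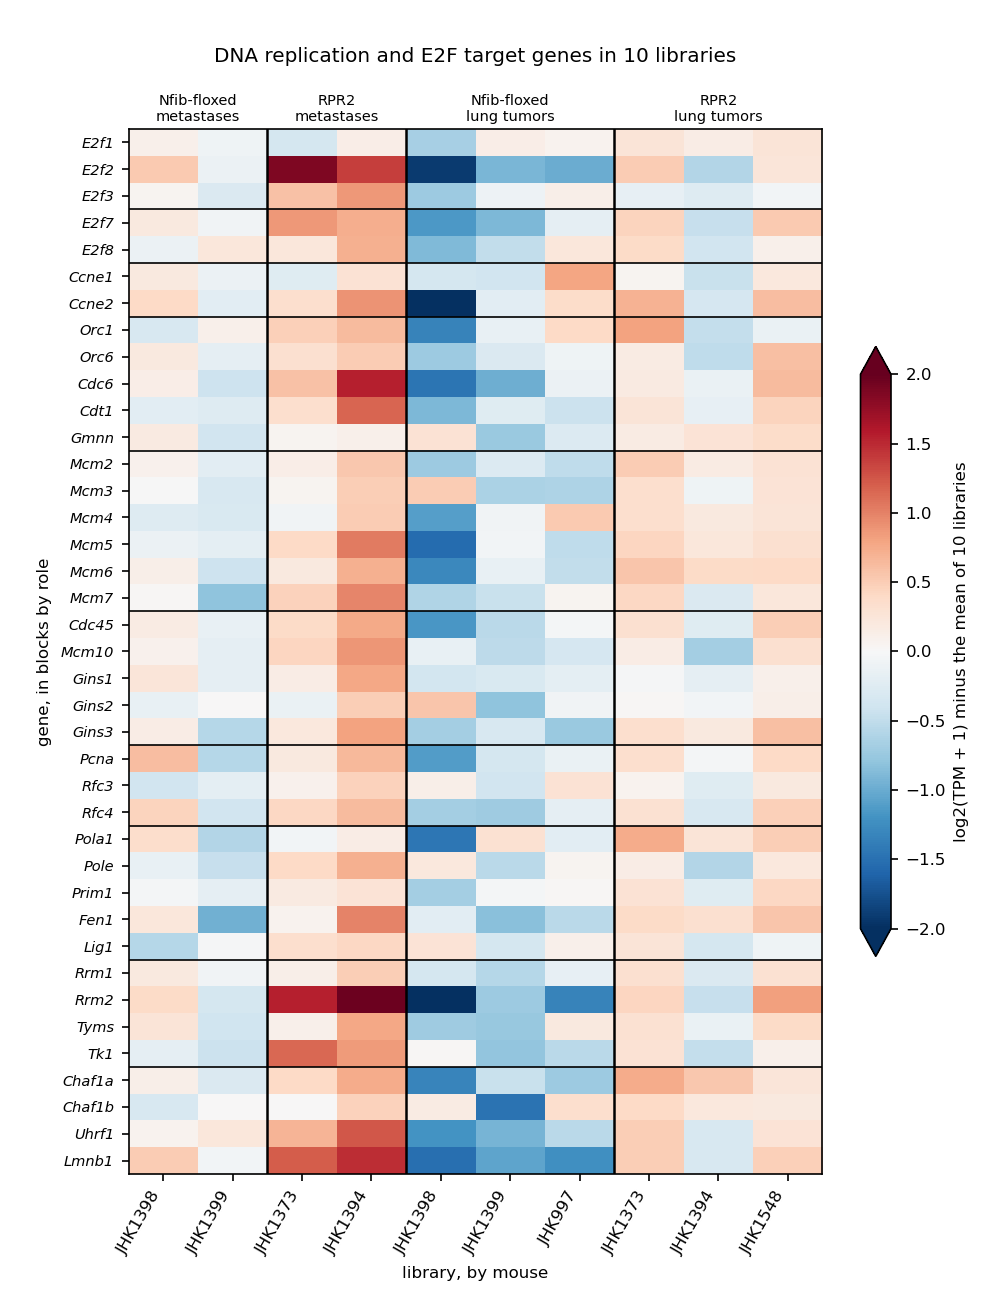
Level of each of the 39 genes (rows, in blocks by role) in each of the 10 libraries (columns, by group and mouse), as log2(TPM + 1) minus the gene's mean over the libraries. Colors end at 2 and -2, and larger differences take the end color. The RPR2 metastasis of JHK1394 is red for most genes and the Nfib-floxed lung tumor of JHK1398 blue for most, except for genes such as Gmnn, Mcm3 and Gins2.

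Metastases were compared with lung tumors by the mean of the differences in both genotypes (limma on log2(TPM + 1), Benjamini-Hochberg adjusted p under 0.05). In metastases 4 of the 39 genes rose and none fell, while 5.88% of all genes tested passed this comparison, 1.76% as higher and 4.12% as lower. The genes that rose were Lmnb1, E2f2, Rrm2 and Uhrf1. The median of the 39 differences was 0.35, beside -0.10 over all genes tested. Above 0 were 34 of the 39, as were 41.6% of all genes tested.

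Lmnb1, the gene of the nuclear lamina protein lamin B1 (chr18:56707813-56753424), was at 137 and 92.0 TPM in Nfib-floxed metastases and at 33.3, 45.5 and 40.2 TPM in Nfib-floxed lung tumors. It was at 223 and 269.7 TPM in RPR2 metastases and at 135, 76.4 and 134 TPM in RPR2 lung tumors. Within each genotype every metastasis lay above every lung tumor, and the mean tissue difference was 1.31 ± 0.24 (log2, SE; adjusted p = 0.0137, limma). E2f2, the gene of an activator E2F (chr4:136172394-136196057), was at 93.4 and 59.7 TPM in Nfib-floxed metastases and at 16.5, 34.0 and 31.97 TPM in Nfib-floxed lung tumors. It was at 239.6 and 170.1 TPM in RPR2 metastases and at 93.2, 43.0 and 77.2 TPM in RPR2 lung tumors. Again the tissues did not overlap within a genotype, and the mean tissue difference was 1.52 ± 0.30 (SE; adjusted p = 0.0180, limma).

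Rrm2, the regulated subunit of ribonucleotide reductase, which makes deoxynucleotides (chr12:24708241-24714146), was at 97.7 and 58.1 TPM in Nfib-floxed metastases and at 14.3, 44.9 and 29.1 TPM in Nfib-floxed lung tumors. It was at 221 and 294 TPM in RPR2 metastases and at 101, 54.1 and 133 TPM in RPR2 lung tumors. The mean tissue difference was 1.48 ± 0.35 (SE; adjusted p = 0.0375, limma), with no overlap of tissues in either genotype. Uhrf1, which brings the maintenance DNA methyltransferase to newly copied DNA (chr17:56303321-56323486), was at 64.6 and 72.4 TPM in Nfib-floxed metastases and at 26.2, 31.8 and 42.1 TPM in Nfib-floxed lung tumors. It was at 99.0 and 146 TPM in RPR2 metastases and at 86.5, 49.3 and 74.1 TPM in RPR2 lung tumors. Its mean tissue difference was the smallest of the 4, 0.93 ± 0.24 (SE; adjusted p = 0.0491, limma), and the tissues again did not overlap within a genotype. E2f7 and Gins1, which did not pass, were also higher in metastases without overlap in both genotypes. The share of all genes that were so was not counted. Lack of overlap is read from the values that the test used, so it adds no support to the 4 calls.

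These calls rested on few libraries. None of the 39 genes passed without the Nfib-floxed metastasis of JHK1398, without the RPR2 metastasis of JHK1394 or with mouse as a fixed replicate block, against 4 with mouse as a random block; 1 passed without the RPR2 metastasis of JHK1373 and 2 without the Nfib-floxed lung tumor of JHK997, the RPR2 lung tumor of JHK1373 or that of JHK1394. Markers of cells other than tumor cells differed between the samples. The 10 hepatocyte markers summed to 95.7 and 2556 TPM in Nfib-floxed metastases, 8661 and 8889 TPM in RPR2 metastases and 92.0 to 1243 TPM in lung tumors. The Nfib-floxed metastasis of JHK1398 thus lay within the range of the lung tumors, and liver cells are not shown in it. The 6 erythroid markers summed to 476 and 42987 TPM in Nfib-floxed metastases, 64953 and 4140.45 TPM in RPR2 metastases and 667 to 11754 TPM in lung tumors. The 10 fibroblast and mural cell markers summed to 379 and 250.2 TPM in Nfib-floxed metastases, 298 and 406 TPM in RPR2 metastases and 525 to 2246 TPM in lung tumors. The 6 B and plasma cell markers summed to 3.49 and 7.72 TPM in Nfib-floxed metastases, 50.6 and 11.3 TPM in RPR2 metastases and 95.2 to 679 TPM in lung tumors, so that for both lists every metastasis lay below every lung tumor. The part of these cells, and of the lung epithelium given above, in the levels of the 39 genes was not tested. When TPM was rescaled without the marker genes of non-tumor cells and the mitochondrially encoded genes, 4 of the 39 passed.

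**Figure D2:**
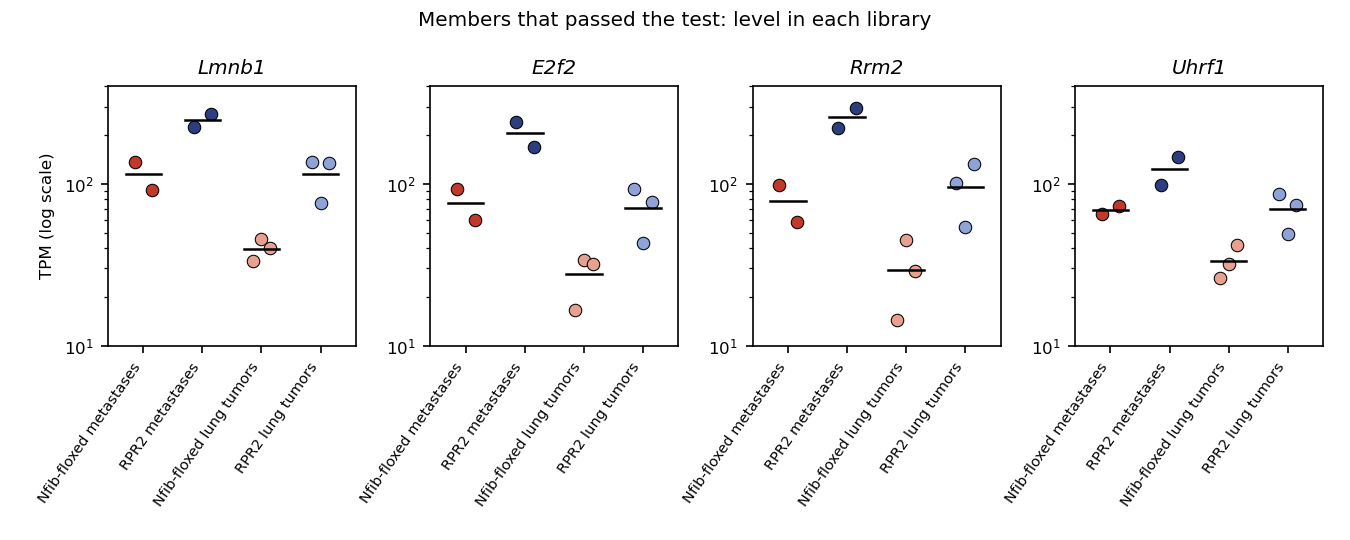
TPM on a log axis of the 4 genes that passed the comparison of metastases with lung tumors, 1 point per library and a line at each group's mean. In each panel the RPR2 metastases lie highest (for Rrm2 at 221 and 294 TPM) and the Nfib-floxed lung tumors lowest (14.3 to 44.9 TPM).

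Within each genotype alone, none of the 39 genes passed the comparison of tissues, where 0.123% of all genes passed in Nfib-floxed mice and 5.61% in RPR2 mice. At an unadjusted p under 0.05, 4 of the 39 were higher in Nfib-floxed metastases, where 2.68% of all genes were, and 0 were lower, where 6.7% were. In RPR2 metastases 6 were higher, where 5.41% of all genes were, and 0 lower, where 13.4% were. The median difference was 0.33 in Nfib-floxed mice, beside -0.05 for all genes, and 0.33 in RPR2 mice, beside -0.15. In Nfib-floxed mice 9 genes were higher in every metastasis than in every lung tumor, where 7.76% of all genes were, and none was lower in every one, where 14.8% were. In RPR2 mice 12 genes were higher without overlap, where 15.1% of all genes were, and 3 were lower, where 31% were. The 3 lower genes were E2f1, Gmnn and Pola1. Lmnb1 had the smallest p in Nfib-floxed mice (1.49 ± 0.33, SE; adjusted p = 0.202, limma) and E2f2 in RPR2 mice (1.56 ± 0.43, SE; adjusted p = 0.0606, limma). Of the 39 genes, 30 had a difference above 0 in both genotypes, as had 23.6% of all genes tested. The tissue difference was not shown to depend on genotype for any of the 39 (0 passed, where 0.581% of all genes did; none of the 39 and 9.68% of all genes had an unadjusted p under 0.05), and the smallest p was that of Tk1 (-0.90 ± 0.47, SE; adjusted p = 0.611, limma).

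The same direction was not seen in every mouse. The metastasis was higher than the lung tumor of the same mouse for 31 of 39 genes in JHK1398 and 27 in JHK1399, both Nfib-floxed, and for 18 in JHK1373 and 36 in JHK1394, both RPR2. Of all genes tested, 55.4%, 41.6%, 33.6% and 49.8% were higher in the metastasis, in that order of mice. The median difference (metastasis minus lung tumor, log2) was 0.81, 0.24, -0.11 and 0.92 in these mice, beside 0.15, -0.11, -0.27 and 0.00 for all genes tested. The mice with the larger medians, JHK1398 and JHK1394, are those whose lung tumors held the high lung epithelium markers. Without both of these lung tumors 2 genes passed the mean tissue comparison, and the median of the 39 was 0.19. The largest single differences within a mouse were 2.93 for Ccne2 in JHK1398, 1.48 for Chaf1b in JHK1399, 1.35 for E2f2 in JHK1373 and 2.42 for Rrm2 in JHK1394.

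Nfib-floxed tumors were compared with RPR2 tumors in each tissue and over both. Over both tissues Lmnb1 fell in Nfib-floxed tumors, by a log2 difference of -1.30 ± 0.24 (SE; adjusted p = 0.0492, limma with mouse as a random effect), and no other gene of the 39 passed; 0.587% of all genes passed, 0.168% as lower. Next in order were Rrm2 at -1.74 ± 0.37 (adjusted p = 0.0825) and E2f2 at -1.38 ± 0.31 (adjusted p = 0.0940). The median difference was -0.56, beside -0.04 for all genes. The difference was below 0 for 38 of 39 genes, as it was for 53.1% of all genes tested. The exception was Ccne1, at 0.05 ± 0.29. In both tissues taken singly the difference was below 0 for 36 genes, as it was for 31.9% of all genes tested. The call of Lmnb1 was lost without any of 7 libraries (the Nfib-floxed metastasis of JHK1399, both RPR2 metastases, the Nfib-floxed lung tumors of JHK1399 and JHK997, and the RPR2 lung tumors of JHK1373 and JHK1548), while 3 genes passed without the Nfib-floxed lung tumor of JHK1398. The signs of the median differences over the set, in each tissue and in each genotype, were the same under quantile normalization, median centring and rescaling.

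In liver metastases none of the 39 genes passed the comparison of genotypes, where 2.04% of all genes did. At an unadjusted p under 0.05, 7 were lower, where 6.02% of all genes were, and 0 higher, where 6.81% were. The difference was below 0 for 37 genes, as it was for 49.6% of all genes tested. The median was -0.57, beside 0.00 for all genes. Both Nfib-floxed metastases lay below both RPR2 metastases for 26 genes, where 22% of all genes did so, and above both for none, where 23.8% did. Tk1, a thymidine kinase of the nucleotide salvage pathway, had the smallest p, with 101 and 85.0 TPM in Nfib-floxed metastases, against 254 and 208 TPM in RPR2 metastases (-1.31 ± 0.36, SE; adjusted p = 0.105, limma). Rrm2 (-1.74 ± 0.55), Lmnb1 (-1.12 ± 0.36) and E2f2 (-1.42 ± 0.47) followed, with adjusted p of 0.158, 0.174 and 0.176. Hepatocyte markers, given above, were lower in both Nfib-floxed metastases. The 8 endothelium markers were higher there, at 359 and 1294 TPM in Nfib-floxed metastases, against 45.1 and 51.7 TPM in RPR2 metastases. The 10 macrophage and monocyte markers were lower, at 169 and 236 TPM in Nfib-floxed metastases, against 594 and 304 TPM in RPR2 metastases, and the B and plasma cell markers above and the 8 T and NK cell markers were lower too. Mitochondrially encoded genes took 6.42% and 6.62% of TPM in Nfib-floxed metastases, against 6.003% and 5.44% in RPR2 metastases. The neuroendocrine list summed to 8025 and 61557 TPM in Nfib-floxed metastases, against 2646 and 3879.8 TPM in RPR2 metastases. Of these sums, Calca alone was at 5470 and 57529 TPM in Nfib-floxed metastases, against 545 and 1410 TPM in RPR2 metastases. The part of these markers and of the mitochondrially encoded genes in the differences of the 39 genes was not tested.

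In lung tumors none of the 39 genes passed, and neither did any of the 15503 genes (0%). At an unadjusted p under 0.05 there were 14 lower, where 4.79% of all genes were lower, and 0 higher, where 3.15% were. The difference was below 0 for 37 genes, as it was for 57.6% of all genes tested. The median was -0.60, beside -0.10 for all genes. All 3 Nfib-floxed lung tumors lay below all 3 RPR2 lung tumors for 14 genes, where 8.81% of all genes did so, and above for none, where 5.66% did. These 14 were E2f1, E2f2, Cdt1, Mcm2, Mcm5, Mcm6, Gins1, Gins3, Pcna, Fen1, Rrm2, Chaf1a, Uhrf1 and Lmnb1. The smallest p were those of Lmnb1 (-1.48 ± 0.30), Chaf1a (-1.34 ± 0.32), Rrm2 (-1.72 ± 0.45) and E2f2 (-1.33 ± 0.38), each with an adjusted p of 0.595 (limma) and an exact two-sided permutation p of 0.1, the smallest that 20 arrangements allow. Mitochondrially encoded genes took 12.9%, 7.13% and 5.41% of TPM in Nfib-floxed lung tumors, against 4.98%, 4.32% and 5.198% in RPR2 lung tumors, so that in both tissues this share was higher in every Nfib-floxed library than in every RPR2 library. Its part in the differences between genotypes was not tested. Summed levels of the neuroendocrine list were 9592, 72266.5 and 75804 TPM in Nfib-floxed lung tumors, against 22302, 12849.8 and 15079.5 TPM in RPR2 lung tumors. Most of each of these sums came from a single gene of the list, Calca. Calca was at 6044, 68511 and 71946 TPM in Nfib-floxed lung tumors, against 18196, 9162 and 11505 TPM in RPR2 lung tumors. The sums thus mainly follow Calca and do not measure the share of neuroendocrine cells. Without the lung tumors of JHK1398 and JHK1394 the median of the 39 was -0.66.

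**Figure D3:**
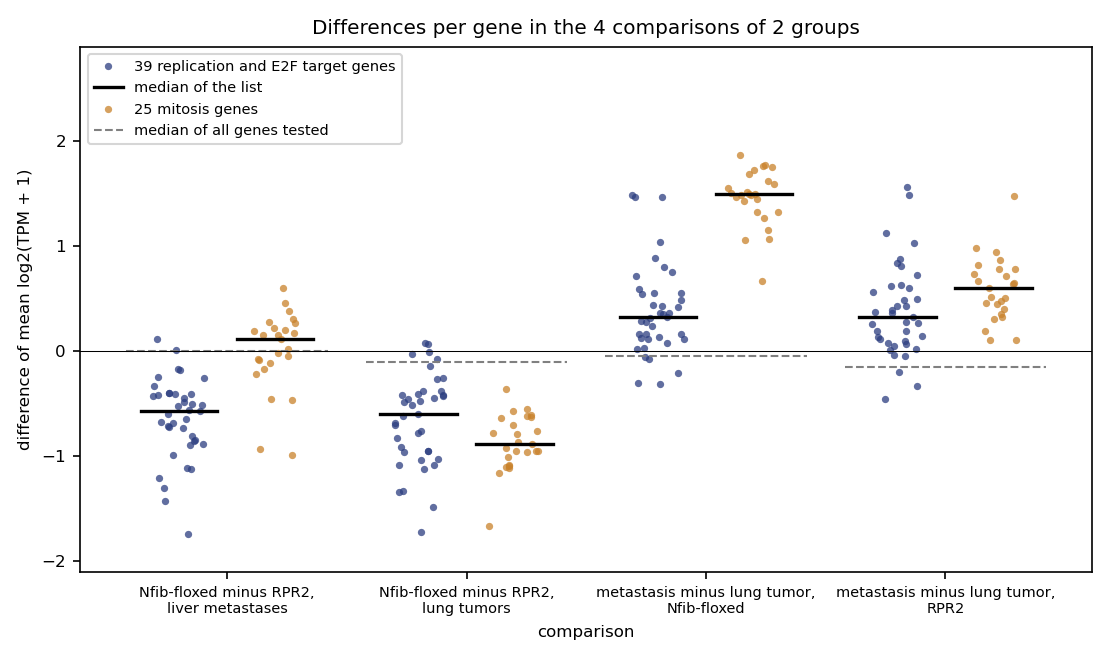
Log2 difference of each of the 39 genes (blue) and of 25 mitosis genes (orange) in the 4 comparisons of 2 groups, on the log2(TPM + 1) scale, with the median of each list as a bar and the median of all genes tested as a dashed line. In liver metastases the bar of the 39 genes lies at -0.57 and that of the mitosis genes at 0.12, and in Nfib-floxed mice the bars lie at 0.33 and 1.501.

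Among the activator E2F genes, which pair with DP proteins to turn on S phase genes, the members differed in pattern. E2f1 (chr2:154559407-154569892) was at 56.6 and 49.8 TPM in Nfib-floxed metastases, against 41.4 and 57.9 TPM in RPR2 metastases. It was at 33.1, 58.0 and 55.3 TPM in Nfib-floxed lung tumors, against 63.4, 58.7 and 63.7 TPM in RPR2 lung tumors. The metastases of the genotypes overlapped, and the 3 RPR2 lung tumors lay just above the highest Nfib-floxed one. E2f3 ranged over 5.45 to 18.4 TPM, with both RPR2 metastases above all other libraries. As a share of the summed TPM of E2f1, E2f2 and E2f3, E2f2 made up 58.4% and 50.9% in Nfib-floxed metastases, 81.0% and 69.1% in RPR2 metastases, 30.1% to 33.7% in Nfib-floxed lung tumors and 39.2% to 56.4% in RPR2 lung tumors. E2f1 made up 35.3% and 42.5% in Nfib-floxed metastases, 14.0% and 23.5% in RPR2 metastases, 56.5% to 60.03% in Nfib-floxed lung tumors and 38.4% to 53.6% in RPR2 lung tumors. Thus E2f1 was the most abundant activator in all 3 Nfib-floxed lung tumors and in that of the RPR2 mouse JHK1394, while E2f2 was so in the other 6 libraries.

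**Figure D4:**
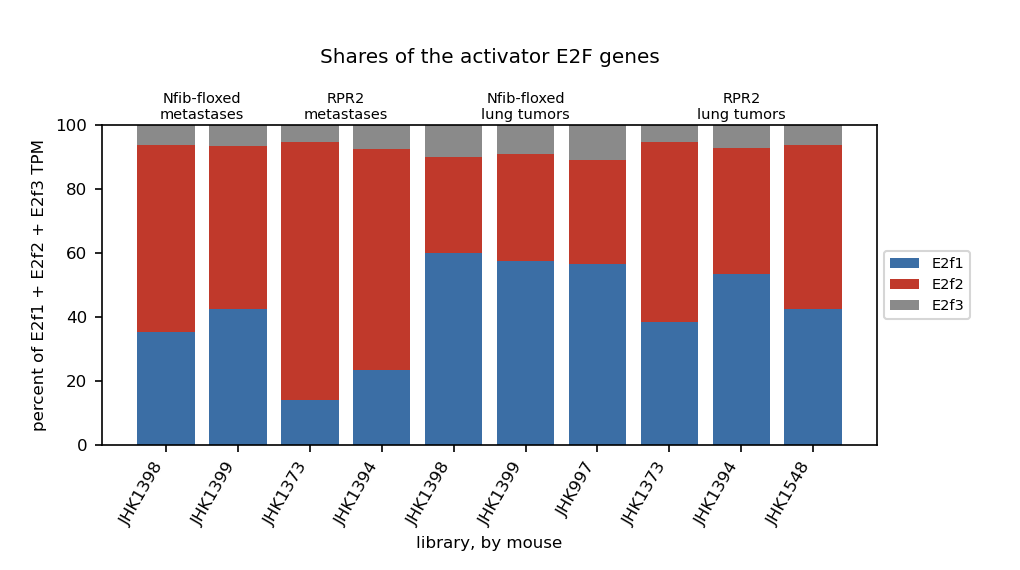
Share of E2f1, E2f2 and E2f3 in their summed TPM (percent, 0 to 100) in each library, by group and mouse. E2f2 takes 81.0% and 69.1% in the RPR2 metastases and 30.1% to 33.7% in the Nfib-floxed lung tumors.

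The atypical E2F genes encode repressors of E2F targets, and the cyclin E genes encode the partners of CDK2 at the start of S phase. E2f8 was at 43.6 and 55.9 TPM in Nfib-floxed metastases, against 55.7 and 78.4 TPM in RPR2 metastases, and at 25.4, 33.4 and 55.8 TPM in Nfib-floxed lung tumors, against 62.1, 36.4 and 50.9 TPM in RPR2 lung tumors, so that the genotypes overlapped in both tissues. E2f7 was lower in both Nfib-floxed metastases (25.7 and 21.1 TPM) than in both RPR2 metastases (41.4 and 37.5 TPM), with no test passed. The sum of E2f7 and E2f8 over that of E2f1 to E2f3 was 0.328 to 0.772 in the 10 libraries. Ccne2 was at 150.3 and 98.5 TPM in Nfib-floxed metastases, against 144 and 213 TPM in RPR2 metastases, and at 18.9, 98.1 and 147 TPM in Nfib-floxed lung tumors, against 185, 90.7 and 176 TPM in RPR2 lung tumors. The Nfib-floxed lung tumor of JHK1398 was far below the other libraries for Ccne2, and there Ccne1 made up 67.4% of the cyclin E sum, against 22.04% to 37.3% in the other 9. Ccne1 itself was at 39.1 TPM in that tumor, within the 36.5 to 87.5 TPM of the 10 libraries.

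Of the 5 licensing genes, Orc1 and Orc6 belong to the origin recognition complex, Cdc6 and Cdt1 load the MCM helicase, and Gmnn encodes geminin, the inhibitor of CDT1. None passed a test, and 5 of 5 had a difference below 0 between genotypes in each tissue, as had 31.9% of all genes tested. Gmnn, the most abundant of them, was at 164 and 111 TPM in Nfib-floxed metastases, against 150.3 and 155 TPM in RPR2 metastases, and at 178, 86.1 and 119 TPM in Nfib-floxed lung tumors, against 163, 175 and 188 TPM in RPR2 lung tumors. Orc1 was at 4.65 and 6.57 TPM in Nfib-floxed metastases, against 8.88 and 9.95 TPM in RPR2 metastases, and at 1.81, 5.39 and 8.37 TPM in Nfib-floxed lung tumors, against 11.3, 4.09 and 5.46 TPM in RPR2 lung tumors. Gmnn overlapped between genotypes in both tissues, while Orc1, Orc6, Cdc6 and Cdt1 were lower in both Nfib-floxed metastases than in both RPR2 metastases. The ratio of Cdt1 to Gmnn was 0.393 and 0.566 in Nfib-floxed metastases, 0.634 and 1.09 in RPR2 metastases, 0.224, 0.732 and 0.465 in Nfib-floxed lung tumors and 0.555, 0.383 and 0.543 in RPR2 lung tumors. The RPR2 metastasis of JHK1394 was the only library with more Cdt1 than Gmnn, and the Nfib-floxed lung tumor of JHK1398 had the lowest ratio.

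The 6 MCM genes encode the ring of the replicative helicase. None passed a test, and the difference between genotypes was below 0 for 6 of 6 in each tissue, as it was for 31.9% of all genes tested. The medians were -0.55 in metastases and -0.65 in lung tumors. Mcm2 was at 157 and 127 TPM in Nfib-floxed metastases, against 162 and 216 TPM in RPR2 metastases, and at 89.0, 122 and 104 TPM in Nfib-floxed lung tumors, against 209.7, 166 and 182 TPM in RPR2 lung tumors; the genotypes did not overlap in either tissue. Mcm7 was the most abundant on average, with 183 and 103 TPM in Nfib-floxed metastases, against 249 and 355 TPM in RPR2 metastases, and with 118, 132 and 186 TPM in Nfib-floxed lung tumors, against 239, 147 and 211 TPM in RPR2 lung tumors. Mcm7 was apart between genotypes in metastases and overlapped in lung tumors. Within a library the most abundant MCM gene exceeded the least abundant by 2.21-fold to 3.81-fold in 9 libraries and by 7.01-fold in the Nfib-floxed lung tumor of JHK1398, where Mcm3 was at 220.2 TPM and Mcm4 at 31.4 TPM. Mcm4 was the lowest of the 6 in 9 libraries and Mcm5 in the Nfib-floxed lung tumor of JHK997. Mcm7 was the highest in 5 libraries, Mcm6 in 3 and Mcm2 and Mcm3 in 1 each. The 6 genes summed to 824 and 624 TPM in Nfib-floxed metastases and to 965 and 1375 TPM in RPR2 metastases. They summed to 561, 669 and 680.2 TPM in Nfib-floxed lung tumors and 1113, 874 and 1012 TPM in RPR2 lung tumors.

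**Figure D5:**
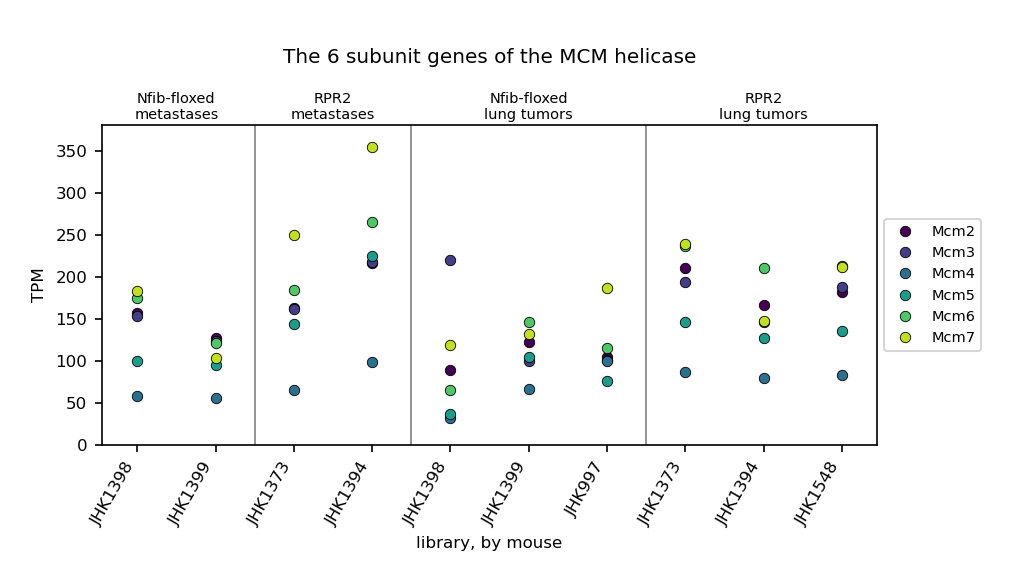
TPM (linear axis from 0) of the 6 MCM genes in each library, by group and mouse. The points lie within 2.21-fold to 3.81-fold of each other except in the Nfib-floxed lung tumor of JHK1398, where Mcm3 stands above the rest at 220.2 TPM.

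CDC45, the GINS subunits and MCM10 activate the loaded helicase. Gins1, the most abundant of their genes, was at 61.0 and 45.4 TPM in Nfib-floxed metastases, against 57.2 and 88.4 TPM in RPR2 metastases, and at 39.5, 41.4 and 45.1 TPM in Nfib-floxed lung tumors, against 50.6, 45.4 and 55.05 TPM in RPR2 lung tumors. Its genotypes overlapped in metastases and not in lung tumors, where they were separated by less than 1 TPM. Gins3 was apart in both tissues, with 8.96 and 5.06 TPM in Nfib-floxed metastases against 9.46 and 14.7 TPM in RPR2 metastases, and Gins2 overlapped in both. Of the clamp and clamp loader genes, Pcna (chr2:132249162-132253314) was at 1224 and 539 TPM in Nfib-floxed metastases, against 915 and 1252 TPM in RPR2 metastases, and at 367, 624 and 729 TPM in Nfib-floxed lung tumors, against 1007, 772 and 1052 TPM in RPR2 lung tumors. Pcna overlapped between genotypes in metastases, and did not overlap in lung tumors; the difference there was -0.76 ± 0.38 (SE). Rfc4 and Rfc3, subunits of the clamp loader, overlapped in lung tumors.

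Pola1 and Prim1 (polymerase alpha and primase), Pole (the leading strand polymerase), Fen1 and Lig1 (Okazaki fragment processing) had a median difference between genotypes of -0.68 in metastases and -0.38 in lung tumors, and none passed. Prim1 was at 140.1 and 127 TPM in Nfib-floxed metastases, against 163 and 174 TPM in RPR2 metastases, and at 89.4, 141 and 147 TPM in Nfib-floxed lung tumors, against 176, 122 and 192 TPM in RPR2 lung tumors. Prim1 was separated by genotype in metastases and overlapped in lung tumors. Lig1 was the only other gene besides E2f1 whose difference had opposite signs in the tissues, at -0.68 ± 0.34 in metastases and 0.07 ± 0.27 in lung tumors. Fen1 was at 60.3 and 25.8 TPM in Nfib-floxed metastases, against 53.5 and 103 TPM in RPR2 metastases, and was lower without overlap in Nfib-floxed lung tumors (28.4 to 43.9 TPM) than in RPR2 lung tumors (64.3 to 75.3 TPM).

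Of the nucleotide supply genes, the subunits of ribonucleotide reductase had different levels over the libraries. Rrm1, the large subunit, was at 171 and 143 TPM in Nfib-floxed metastases, against 163 and 211 TPM in RPR2 metastases, and at 117, 100.04 and 134 TPM in Nfib-floxed lung tumors, against 188, 123 and 184 TPM in RPR2 lung tumors. The genotypes overlapped for Rrm1 in both tissues, while Rrm2 did not overlap in either. The ratio of Rrm2 to Rrm1 was 0.570 and 0.407 in Nfib-floxed metastases, 1.35 and 1.39 in RPR2 metastases, 0.122, 0.448 and 0.217 in Nfib-floxed lung tumors and 0.536, 0.440 and 0.722 in RPR2 lung tumors. Rrm2 exceeded Rrm1 only in the RPR2 metastases. Tyms, the thymidylate synthase gene, overlapped between genotypes in both tissues. Tk1 was at 116, 66.2 and 78.6 TPM in Nfib-floxed lung tumors, against 140.1, 82.3 and 123 TPM in RPR2 lung tumors, with overlap, unlike in the metastases above.

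The last 4 genes act in new chromatin and the nuclear lamina, and this group had the lowest median differences between genotypes in lung tumors of any role (-1.19). Chaf1a, the large subunit of the CAF-1 histone chaperone, was at 26.3 and 19.6 TPM in Nfib-floxed metastases, against 31.9 and 40.8 TPM in RPR2 metastases, and at 9.001, 17.5 and 14.1 TPM in Nfib-floxed lung tumors, against 41.0, 35.6 and 28.6 TPM in RPR2 lung tumors. Its genotypes did not overlap in either tissue. Chaf1b, the middle subunit, overlapped in lung tumors, where the Nfib-floxed tumors were at 120.2, 37.8 and 136 TPM. Lmnb1 averaged 115 ± 32.04 TPM in Nfib-floxed metastases and 246 ± 32.9 TPM in RPR2 metastases (SD, n = 2 each). In lung tumors Lmnb1 averaged 39.6 ± 6.12 TPM in the Nfib-floxed group and 115 ± 33.7 TPM in the RPR2 group (SD, n = 3 each). Every Nfib-floxed tumor lay below every RPR2 tumor of the same tissue for Lmnb1, Uhrf1, E2f2, Rrm2, Cdt1, Mcm2, Mcm5, Mcm6, Gins3 and Chaf1a. Of all genes tested, 22% did so in metastases and 8.81% in lung tumors. The share of all genes that did so in both tissues was not counted.

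Other genes of the pathway were taken from textbook lists. Of 40 further replication fork and origin genes none passed any of the 7 comparisons. Their median was -0.30 between genotypes in metastases, -0.37 in lung tumors and 0.18 between tissues. Rpa2, a subunit of the single-strand DNA binding protein RPA, had the smallest p between tissues (adjusted p = 0.0654, limma), with 169 and 114 TPM in Nfib-floxed metastases, against 316 and 319.8 TPM in RPR2 metastases, and 36.4, 55.3 and 90.6 TPM in Nfib-floxed lung tumors, against 213, 71.5 and 172 TPM in RPR2 lung tumors. The next smallest p of the list over the comparisons of 2 groups was that of Rnaseh2b, a subunit of ribonuclease H2, which removes ribonucleotides from DNA, at -0.84 ± 0.31 (SE) in Nfib-floxed against RPR2 lung tumors (adjusted p = 0.595, limma). Of 15 other E2F, DP, pocket protein and DREAM genes, Foxm1, a transcription factor of mitosis genes, rose in metastases (1.30 ± 0.29, SE; adjusted p = 0.0270, limma). Foxm1 was at 56.8 and 61.3 TPM in Nfib-floxed metastases, against 141 and 125 TPM in RPR2 metastases, and at 20.8, 35.2 and 24.3 TPM in Nfib-floxed lung tumors, against 64.2, 26.3 and 62.8 TPM in RPR2 lung tumors, so that each metastasis lay above the lung tumors of its genotype.

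Of 20 cyclins, kinases and inhibitors of G1 and S phase, Ccna2, the S phase cyclin A2 gene, rose in metastases (1.27 ± 0.31, SE; adjusted p = 0.0420, limma). Cdkn2b, which encodes the CDK4 and CDK6 inhibitor p15, fell (-1.88 ± 0.37, SE; adjusted p = 0.0171, limma). Fbxw7, the ubiquitin ligase subunit that targets cyclin E, fell (-1.44 ± 0.35, SE; adjusted p = 0.0399, limma). Cdkn2b was at 3.05 and 8.15 TPM in Nfib-floxed metastases, against 3.16 and 2.66 TPM in RPR2 metastases, and at 21.3, 8.31 and 12.5 TPM in Nfib-floxed lung tumors, against 15.5, 31.6 and 21.0 TPM in RPR2 lung tumors. In RPR2 mice alone Cdkn2b also fell in metastases (-2.55 ± 0.52, SE; adjusted p = 0.0168, limma). Fbxw7 was at 16.3 and 64.0 TPM in Nfib-floxed metastases, against 10.5 and 10.3 TPM in RPR2 metastases, and at 73.9, 61.7 and 92.7 TPM in Nfib-floxed lung tumors, against 30.7, 48.3 and 31.0 TPM in RPR2 lung tumors; the Nfib-floxed metastasis of JHK1399 lay within the range of the lung tumors. Of 28 other textbook E2F targets, 27 had a difference above 0 between tissues (median 0.44), as had 41.6% of all genes tested. Of these targets Melk, a kinase gene of dividing cells, rose (1.18 ± 0.28, SE; adjusted p = 0.0371, limma). In the mean comparison of tissues Fbxw7 passed in 7 of 22 settings, Ccna2 in 11, Melk in 12, Foxm1 in 15 and Cdkn2b in 17, and the highest adjusted p (limma) was 0.126 for Fbxw7, 0.172 for Ccna2 and 0.164 for Melk.

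Of 25 mitosis genes 9 rose in metastases over both genotypes (Birc5, Cenpa, Ube2c, Tpx2, Kif20a, Aurka, Aurkb, Cdk1 and Nusap1), where 1.76% of all genes did. All 25 differences were above 0, as were 41.6% of those of all genes tested. Birc5 passed in 20 and Cenpa in 18 of 22 settings of the processing, and the other 7 genes in 6 (Nusap1) to 10 (Kif20a), so most of these calls were lost in most settings. The median was 0.35 for the 39 replication and E2F genes and 1.09 for the mitosis genes. Birc5, the gene of survivin, was at 187 and 145 TPM in Nfib-floxed metastases, against 349 and 283 TPM in RPR2 metastases, and at 54.99, 69.7 and 49.6 TPM in Nfib-floxed lung tumors, against 136, 67.1 and 154 TPM in RPR2 lung tumors. Its mean tissue difference was 1.49 ± 0.26 (SE; adjusted p = 0.0125, limma), and it also passed in RPR2 mice alone (1.48 ± 0.37, SE; adjusted p = 0.0425, limma), a call that held in 12 of 23 settings with adjusted p up to 0.266 (limma). Cenpa, the centromeric histone gene, rose by 1.16 ± 0.24 (SE; adjusted p = 0.0195, limma). The median between genotypes was -0.57 for the 39 genes and 0.12 for mitosis genes in metastases, and in lung tumors it was -0.60 for the 39 genes and -0.89 for mitosis genes. Between tissues it was 0.33 for the 39 genes and 1.501 for mitosis genes in Nfib-floxed mice, and in RPR2 mice 0.33 for the 39 genes and 0.60 for mitosis genes. Relative to each gene's mean over the libraries, the median level of the 39 genes minus that of the mitosis genes was -0.64 and -0.79 in Nfib-floxed metastases and -0.16 and 0.02 in RPR2 metastases (log2 scale). In lung tumors it was 0.65, -0.08 and 0.74 in the Nfib-floxed group and 0.05, 0.41 and -0.10 in the RPR2 group, so that the genotypes overlapped there. These medians are descriptions of the lists, and the difference between the lists was not tested.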

How the data were processed

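RNA of 10 whole tumors was sequenced. Morbid mice gave macrodissected, snap-frozen tumors, and polyA RNA was made into NEBNext Ultra II libraries, per the labels' protocols. The submitters' processing notes name Salmon 0.12.0, bcl2fastq 2.20, R 4.1.0 and the genome build GRCm38; strand setting, annotation and other settings are not given there. TPM values per gene were deposited by the authors. TPM keeps no depth, so no counting interval is given, and the number of libraries limits the precision. Salmon divides reads between similar transcripts, which leaves near-identical gene copies uncertain, and antisense partners cannot be told apart without strand.

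Groups and mice came from the labels. The 15503 genes whose mean reached 1 TPM were tested as log2(TPM + 1) with limma 3.58.1 (R 4.3.3). A model of the 4 groups with moderated variances and a mean trend gave 7 two-sided comparisons, adjusted by Benjamini-Hochberg over all genes, with 6 residual and 4.56 prior degrees of freedom. Fold changes are differences on the log2(TPM + 1) scale, which understates changes of low genes. Lung tumor and metastasis of a mouse were treated as separate samples, except in the mean genotype effect, where mouse was a random effect (estimated correlation 0.051). Labels tie the tissues of 4 mice, so they are pairs by design, and their deviations from group means correlated over genes at 0.04 (JHK1398), 0.05 (JHK1399), -0.02 (JHK1373) and -0.01 (JHK1394). Members of the gene set, the lists and the tests were chosen with earlier results of these data known. Values in every library are given for genes past the threshold, the 4 smallest p in each comparison of 2 groups, E2f1, Mcm2, Pcna, the highest and lowest genes and the most abundant of each role. Genes of other lists are named where past the threshold or, with none past it, the 2 with the smallest p in comparisons of 2 groups. Other genes named were chosen after their values were seen. Positions are from the GENCODE annotation of GRCm38, and promoters from RefSeq GRCm38.p6. Other steps used Python 3.11.15, pandas 2.3.3, numpy 2.4.6 and matplotlib 3.10.9, and the tests were tried on simulated data. Alternatives covered pseudocounts, filters, scalings, moderation, weights, mouse blocks, the 2 compared groups alone and leaving out libraries.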

Additional observations from a re-analysis of the deposited data

How the results depend on the processing

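Counts of the 39 genes past the threshold depended on the settings. In the mean tissue effect (4 genes), 2 passed with no filter on low values, 0 with mouse as a fixed replicate block and 2 without the lung tumors of JHK1398 and JHK1394; leaving out single libraries gave 0 to 3, and mouse as a random replicate block 4. In the mean genotype effect (1 gene), 0 passed with no filter and 0 with robust moderation, 2 with quantile normalization, 2 with median centring, 4 with array weights and 4 without both of these lung tumors; leaving out single libraries gave 0 to 3, and the fit with no replicate block 1. In RPR2 mice 2 genes passed the tissue comparison with quantile normalization, 2 with median centring, 2 with rescaling and 4 with array weights, and 0 to 2 without single libraries. In liver metastases 1 gene passed between genotypes with array weights and 1 without both lung tumors. The cause of these changes was not tested. The counts in lung tumors, in Nfib-floxed mice and of the interaction stayed at 0 in all settings run. The median over the 39 genes kept its sign in every setting for the 4 comparisons of 2 groups and both mean effects, at -0.82 to -0.48 in lung tumors, -0.82 to -0.38 in metastases, 0.15 to 0.56 in Nfib-floxed mice and 0.08 to 0.58 in RPR2 mice. The median of the interaction lay between -0.18 and 0.27. In the mean tissue effect Lmnb1 passed in 19 of 22 settings, E2f2 in 18, Rrm2 in 13 and Uhrf1 in 5. Where a leave-out left 1 library in a group, it was assumed to vary like the others.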

Other observations

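The summed TPM of the 39 genes over that of Mki67, a marker of dividing cells, was 26.2 and 16.1 in Nfib-floxed metastases and 39.7 and 29.2 in RPR2 metastases. It was 37.8, 22.2 and 20.8 in Nfib-floxed lung tumors and 28.8, 50.4 and 19.3 in RPR2 lung tumors. The ratio was lower in both Nfib-floxed metastases than in both RPR2 metastases, and the genotypes overlapped in lung tumors. The ratio was not tested. RNA of the genes deleted in the model was still read in every library: Rb1 was at 41.6 to 143 TPM, Trp53 at 10.8 to 28.0 TPM and Rbl2 at 6.97 to 38.9 TPM. A level over a whole gene does not show whether its floxed part is present.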
